A study of Mus musculus with 75 samples.

Results

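The hippocampus of mice that lack DNMT3A1, the long isoform of the DNA methyltransferase DNMT3A, was compared with wild type hippocampus by RNA sequencing of the whole tissue. The comparison holds 6 of the 75 samples of the series, the 3 libraries labelled hippocampus RNA of the DNMT3A1 knockout (genotype Dnmt3a1-/-) and the 3 labelled hippocampus RNA of wild type, chosen by their titles. All came from C57BL/6 mice at postnatal day 21, and no further allele, agent or treatment is named for either group. The labels do not say how the allele was made, whether each library stands for its own animal, or whether animals were pooled, so every p-value below speaks of the variation among these libraries alone. The Dnmt3a1-/- and wild type cortex libraries of the series, 3 of each from the same strain and age, serve below as a second tissue.

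DNMT3A places methyl groups on cytosines of DNA that carried none before. The gene makes 2 main proteins from separate start sites: DNMT3A1, with a long and largely unstructured N-terminus, and DNMT3A2, which lacks that part. In the brain DNMT3A writes much of the methylation that neurons gain in the weeks after birth, at CG and also at non-CG sites, and methyl-binding proteins read it. The hippocampus itself is a folded cortex of dentate granule cells and pyramidal cells that serves memory, and new granule cells are still being added to it at this age.

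Reads assigned to genes totalled 8.7, 17.8 and 14.7 M (mega) for wild type. The Dnmt3a1-/- libraries held 11.4, 14.6 and 23.2 M. Of the 55487 gene identifiers listed, 15727 had enough reads to be tested. The tissue label was checked with 16 hippocampal markers, 14 of which were higher in every wild type hippocampus library than in every wild type cortex library. The exceptions were Lhx2 and Ociad2. Prox1, the granule cell transcription factor, stood at 100, 85.1 and 80.9 counts per M gene counts (CPM) in wild type hippocampus against 4.32, 5.55 and 3.89 CPM in cortex. By reads of Y-linked genes, replicate 2 of each group was female and the other libraries were male. Libraries differed in markers of the choroid plexus, the secretory epithelium that lies against the hippocampus: 21 tested markers summed to 365 to 437 CPM in wild type and to 1024, 2947 and 278 CPM in Dnmt3a1-/- replicates 1, 2 and 3. Of these sums the member Enpp2 alone held 223, 258 and 198 CPM in wild type and 402, 960 and 163 CPM in Dnmt3a1-/-. The sums of wild type and of Dnmt3a1-/- replicate 3 thus rest largely on that gene.

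Dnmt3a (ENSMUSG00000020661.15) stood at 165, 150 and 136 CPM in wild type and at 69.0, 75.5 and 74.2 CPM in Dnmt3a1-/-. The groups were far apart, and each knockout library held close to the same level. The gene fell by 1.04 ± 0.09 on the log2 scale (standard error, SE, n = 3 against 3, edgeR quasi-likelihood test, Benjamini-Hochberg adjusted p = 0.00011). The count adds up exons of both isoforms, so it does not show how much DNMT3A2 message there was. Among 21 tested genes of the methylation machinery, 2 others were called (adjusted p under 0.05): Gadd45g, a stress protein tied to DNA repair and demethylation, rose by 0.77 ± 0.12 (adjusted p = 0.0073), and Mbd6, of the methyl-binding domain family, rose by 0.54 ± 0.09 (adjusted p = 0.0077). With Dnmt3a itself, 14.3% of the 21 were called, against 2.52% of all genes. Other writers, erasers and readers gave no call: the maintenance enzyme Dnmt1 had a log2 difference of 0.03, the de novo enzyme Dnmt3b 0.49, and Tet1, Tet2 and Tet3, which oxidize methylcytosine, -0.21, 0.36 and -0.08.

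Across the tissue, 396 of 15727 genes were called (2.52%), 266 higher (1.69%) and 130 lower (0.827%) in Dnmt3a1-/-. Of these, 204 (1.3% of tested genes) changed at least 1.5-fold, 158 of them higher. The median log2 difference over all tested genes was 0.0052. An unadjusted p under 0.05 was reached by 2834 genes (18%, called ones included), and for 3679 genes (23.4%) the libraries of the 2 groups did not overlap. The rule for genes of largest change required no overlap, and a call rests on the same separation of libraries. Where lack of overlap is given below for a called gene, it describes the values and adds no support. How many genes were called turned on single libraries. The count was 783 without wild type replicate 1, 298 without Dnmt3a1-/- replicate 1, 86 without Dnmt3a1-/- replicate 2, 220 without Dnmt3a1-/- replicate 3, 137 without wild type replicate 2 and 172 without wild type replicate 3. With the choroid plexus score, a level of that tissue's markers described at the end, as a covariate it was 125. With sex as a term it was 344, and without both female libraries, a fit of 2 against 2 libraries, 28. The score correlated with genotype at 0.527 over the 6 libraries, so a call lost with it does not tell the 2 apart. Of the 125 called genes named in the text, 14 were called under all 16 alternatives, and these are given first. Of all 139 genes whose hippocampus difference is given, 137 kept their direction in each alternative, Cpt1a and Dnmt1, neither of them called, being the exceptions.

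Beside Dnmt3a, the 14 hold 11 genes that rose and 2 that fell. Otoa (ENSMUSG00000034990.15), which codes for otoancorin, an attachment protein of the inner ear epithelium, had the smallest p of all genes. It stood at 1.40, 1.07 and 1.32 CPM in wild type and at 9.09, 9.43 and 9.67 CPM in Dnmt3a1-/-. The knockout libraries lay close together and the lowest of them was far above the highest wild type library. Otoa rose by 2.92 ± 0.19 (log2, adjusted p = 1.5e-05), the largest change among called genes.

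Angptl4 (ENSMUSG00000002289.16), a secreted inhibitor of lipoprotein lipase, went from 2.57, 3.59 and 3.32 CPM to 12.2, 16.6 and 12.5 CPM and rose by 2.08 ± 0.18 (adjusted p = 0.00011). Every knockout library was more than 1.5-fold above every wild type library. Txnip (ENSMUSG00000038393.14), a brake on glucose uptake, stood at 56.3, 55.9 and 42.4 CPM against 91.4, 104 and 94.3 CPM and rose by 0.91 ± 0.11 (adjusted p = 0.0019). Apoc1 (ENSMUSG00000040564.14), a small apolipoprotein, was low in wild type at 0.935, 1.40 and 0.969 CPM, reached 4.59, 6.38 and 4.50 CPM in Dnmt3a1-/-, and rose by 2.17 ± 0.25 (adjusted p = 0.0017).

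Col5a1 (ENSMUSG00000026837.15), a chain of a fibrillar collagen, stood at 14.8, 20.3 and 19.4 CPM in wild type and 40.5, 41.3 and 39.4 CPM in Dnmt3a1-/-. It rose by 1.13 ± 0.11 (adjusted p = 0.00044). Gpnmb (ENSMUSG00000029816.10), a glycoprotein of lysosomes in phagocytes and pigment cells, stood at 4.21, 4.21 and 2.70 CPM against 12.1, 13 and 9.85 CPM and rose by 1.65 ± 0.19 (adjusted p = 0.0015). Groups did not overlap for either gene. Kcnt1 (ENSMUSG00000058740.14), a sodium-activated potassium channel, rose by 0.83 ± 0.09 (57.1, 64.6 and 67.7 CPM to 108, 121 and 108 CPM, adjusted p = 0.0011). Pirt (ENSMUSG00000048070.4), a membrane regulator of TRP channels in sensory neurons, rose by 1.99 ± 0.26 (0.818, 1.74 and 1.45 CPM to 7.05, 5.36 and 4.73 CPM, adjusted p = 0.0025). Hif3a (ENSMUSG00000004328.15), a hypoxia-inducible transcription factor subunit, rose by 1.22 ± 0.15 (9.70, 14 and 14 CPM to 25.2, 29.6 and 34.4 CPM, adjusted p = 0.0020). Cirbp (ENSMUSG00000045193.13), an RNA-binding protein induced by cold, rose by 1.01 ± 0.13 (32.1, 42.3 and 29.6 CPM to 63.2, 76.9 and 70.4 CPM, adjusted p = 0.0023). In each of the 4 the lowest knockout library was above the highest wild type one.

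The last rising gene is listed as Mir6236 (ENSMUSG00000098973.1), at 274, 293 and 251 CPM in wild type and 536, 559 and 456 CPM in Dnmt3a1-/-, a rise of 0.92 ± 0.10 (adjusted p = 0.0013). The libraries were made with an mRNA kit, so the value counts reads over that locus and is no measure of the mature microRNA. The 2 falling genes were Olfml3 (ENSMUSG00000027848.12), a secreted protein made by microglia in the brain, and Lct (ENSMUSG00000026354.8), the gut enzyme lactase, which is also a marker of dentate granule cells. Olfml3 stood at 73.1, 49.9 and 53.3 CPM in wild type and at 32.9, 30.5 and 31.0 CPM in Dnmt3a1-/-, and fell by 0.89 ± 0.13 (adjusted p = 0.0043). Lct stood at 53.2, 42.0 and 42.0 CPM against 22.5, 24.4 and 26.4 CPM and fell by 0.89 ± 0.11 (adjusted p = 0.0022). Wild type replicate 1 was the highest library for both, and neither gene overlapped between groups.

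**Figure D1:**
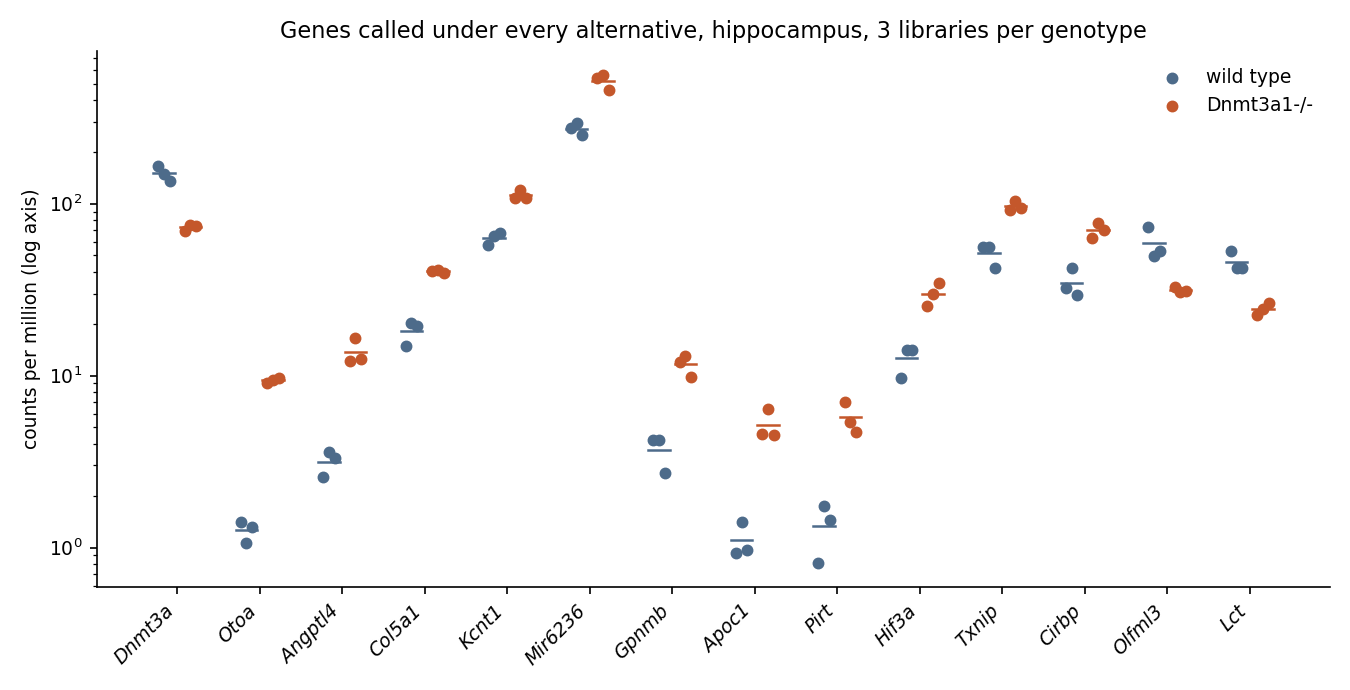
CPM (log axis) of the 14 genes named here that were called under all 16 alternatives, in 3 wild type (blue) and 3 Dnmt3a1-/- (orange) hippocampus libraries, with a line at each group mean. For every gene the 2 groups do not overlap, from Otoa at 1.07 to 1.40 against 9.09 to 9.67 CPM to Lct at 42.0 to 53.2 against 22.5 to 26.4 CPM. This holds for 23.4% of all tested genes, and the rule for genes of largest change required it.

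Because DNMT3A acts on cytosines, mostly in CG pairs, the DNA just around the start of these genes is shown for 5 of them. Of these 13, 8 matched the RefSeq promoter table used here (build GRCm38.p6). The 5 are those named for a largest change or smallest p in their own direction. Txnip, Hif3a and Cirbp were named through lists, and some of their changes are larger than those of Olfml3 and Lct. Each window runs from 250 bases before to 50 bases after the gene's start, 5′ to 3′ on the gene's own strand, with every CG in capitals.
Otoa (chr7:121083174-121083473, plus strand): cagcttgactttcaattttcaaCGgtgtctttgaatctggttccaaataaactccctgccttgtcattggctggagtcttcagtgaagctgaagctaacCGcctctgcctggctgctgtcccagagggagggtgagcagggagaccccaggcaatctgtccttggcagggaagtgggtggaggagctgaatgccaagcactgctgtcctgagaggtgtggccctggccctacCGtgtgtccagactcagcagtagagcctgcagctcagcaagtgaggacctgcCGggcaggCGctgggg
Col5a1 (chr2:27886175-27886474, plus strand): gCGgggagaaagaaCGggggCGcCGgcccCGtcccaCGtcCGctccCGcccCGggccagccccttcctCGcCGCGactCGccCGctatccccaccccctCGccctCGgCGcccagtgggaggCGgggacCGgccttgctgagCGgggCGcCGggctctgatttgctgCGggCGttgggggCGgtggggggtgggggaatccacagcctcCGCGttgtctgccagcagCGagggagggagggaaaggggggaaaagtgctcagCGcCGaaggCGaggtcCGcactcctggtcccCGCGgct
Gpnmb (chr6:49036268-49036567, plus strand): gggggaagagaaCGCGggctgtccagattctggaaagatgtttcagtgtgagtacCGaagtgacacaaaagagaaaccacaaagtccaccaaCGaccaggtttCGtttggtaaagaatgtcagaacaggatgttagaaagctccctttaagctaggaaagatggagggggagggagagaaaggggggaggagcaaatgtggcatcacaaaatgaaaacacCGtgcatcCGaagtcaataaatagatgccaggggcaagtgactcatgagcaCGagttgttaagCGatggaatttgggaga
Olfml3 (chr3:103737952-103738251, minus strand): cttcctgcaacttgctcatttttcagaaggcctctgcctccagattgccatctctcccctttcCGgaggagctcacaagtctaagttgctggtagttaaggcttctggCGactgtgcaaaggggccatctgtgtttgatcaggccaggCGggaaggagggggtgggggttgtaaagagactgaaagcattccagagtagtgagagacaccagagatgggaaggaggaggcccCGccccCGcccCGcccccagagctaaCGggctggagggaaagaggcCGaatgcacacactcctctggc
Lct (chr1:128328269-128328568, minus strand): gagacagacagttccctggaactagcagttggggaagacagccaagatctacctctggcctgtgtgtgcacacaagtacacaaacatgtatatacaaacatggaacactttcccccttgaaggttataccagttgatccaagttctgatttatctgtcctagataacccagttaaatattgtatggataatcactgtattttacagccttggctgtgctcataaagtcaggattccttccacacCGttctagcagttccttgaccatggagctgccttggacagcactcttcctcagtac

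The windows hold 5 CG in Otoa, 34 in Col5a1, 9 in Gpnmb, 8 in Olfml3 and 1 in Lct, and those of Txnip, Hif3a and Cirbp hold 24, 14 and 29. Angptl4, Apoc1, Kcnt1, Pirt and Mir6236 had no match. CG reads the same on both strands, so each pair is counted once. Over all 27025 windows of the table the median is 7 CG (quartiles 3 and 21) and 94.2% hold at least 1. The 11541 windows of tested genes have a median of 20 (quartiles 12 and 28). Against these Otoa, Gpnmb, Olfml3 and Lct lie below the lower quartile, Col5a1 and Cirbp above the upper one, and Txnip and Hif3a between. Windows exist for 73.4% of the 15727 tested genes, 73.7% of those called higher and 70.8% of those called lower. Over matched genes the median was 19 CG for those called higher and 18 for those called lower, against 20 for all tested. Genes without a window could differ, so no difference in CG content is drawn from these medians, and none was tested. No methylation measurement was used, so the windows describe sequence only.

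Further genes rose by large factors from low levels, each lost under at least 1 alternative. Plin4, a coat protein of lipid droplets, stood at 0.701, 1.57 and 2.01 CPM in wild type and at 4.42, 14.9 and 8.26 CPM in Dnmt3a1-/-, and rose by 2.60 ± 0.51 (adjusted p = 0.0495). Dct, which takes part in making melanin, rose by 2.13 ± 0.29 (adjusted p = 0.0028), Klc3, a kinesin light chain, by 1.89 ± 0.24 (adjusted p = 0.0022), and the insulin-responsive glucose carrier Slc2a4 by 1.72 ± 0.32 (adjusted p = 0.015). Slc9a3, a sodium-proton exchanger of gut and kidney, rose by 1.65 ± 0.27 (adjusted p = 0.0076). Several of these are best known from skin, gut, kidney, muscle or fat. At 0.561 to 1.17 CPM in wild type, Dct was measured near the floor of these libraries.

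Falling genes changed less. Gkn3, a gastrokine known in brain from arterial endothelium, stood at 3.97, 5.27 and 2.21 CPM in wild type and at 1.36, 1.22 and 0.972 CPM in Dnmt3a1-/-, and fell by 1.73 ± 0.32 (adjusted p = 0.015). Aplnr, the apelin receptor of growing vessels, stood at 4.56, 2.75 and 3.60 CPM against 1.44, 1.15 and 1.19 CPM and fell by 1.5 ± 0.26 (adjusted p = 0.010). The libraries of the 2 groups did not overlap for these 2 vessel genes, which the rule that named them required. Hist1h2be, a replication-dependent histone, fell by 1.21 ± 0.28, Prtg, an adhesion protein of the embryo, by 1.10 ± 0.23, and Syna, an envelope protein of retroviral origin, by 1.06 ± 0.23 (adjusted p = 0.040, 0.028 and 0.033). Rsad2, the antiviral protein viperin, fell by 0.89 ± 0.20 (adjusted p = 0.035), Slc13a3, a carrier of dicarboxylates, by 0.83 ± 0.18 (adjusted p = 0.041), and Kcng4, a modifying subunit of potassium channels, by 0.94 ± 0.13 (adjusted p = 0.0031). Lcat, which esterifies cholesterol on lipoproteins, fell by 0.67 ± 0.09 (adjusted p = 0.0031), and Lrp4, a receptor of synapses and Wnt signalling, by 0.66 ± 0.10 (adjusted p = 0.0041).

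Genes induced by glucocorticoids and stress held the largest share of calls among the 51 lists (37.5%). The lists were chosen with earlier results of these data known, so this share and those of the other lists give no independent support. Of 24 tested, 9 rose and 0 fell, against 1.69% of all genes called higher, and the list median was 0.49 against 0.0052 for all genes. The 9 were Hif3a, Plin4, Ddit4, an inhibitor of mTOR signalling, Arrdc2, an arrestin-like protein, the kinase Sgk1, the metal-binding proteins Mt1 and Mt2, the sulfotransferase Sult1a1 and the transcription factor Cebpd. Sgk1 stood at 48.1, 57.7 and 63.4 CPM in wild type and at 85.2, 121 and 96.0 CPM in Dnmt3a1-/-, and rose by 0.83 ± 0.13 (adjusted p = 0.0083). Ddit4 stood at 41.1, 40.2 and 45.6 CPM against 72.0, 70.6 and 64.7 CPM and rose by 0.70 ± 0.09 (adjusted p = 0.0022). Neither gene overlapped between groups. Fkbp5 and Tsc22d3, classical glucocorticoid targets, had log2 differences of 0.52 and 0.35 and were not called (adjusted p = 0.12 and 0.18). The receptors themselves, Nr3c1 and Nr3c2, were at -0.23 and -0.25 and not called. The count of 9 was 4 without wild type replicate 2, 5 without Dnmt3a1-/- replicate 2 and 5 with the choroid plexus score as a covariate. It was 8 with sex as a term and 1 without both female libraries.

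Fat metabolism moved in 2 directions. Of 18 tested genes of lipid droplets and fasting metabolism, 5 rose and 0 fell (27.8% called, against 2.52% of all genes, list median 0.24). They include Angptl4, Txnip, Plin4 and Plin3, another droplet coat protein, which rose by 0.55 ± 0.10 (adjusted p = 0.016). Their fatty acid activated regulator Ppara, at -0.30, and the importer Cpt1a, at 0.07, were not called. The 5 calls were 3 without wild type replicate 2, 3 without wild type replicate 3 and 3 with the choroid plexus covariate. Cholesterol synthesis went the other way: all 20 tested enzymes had log2 differences below 0 (median -0.33), and 6 of them fell, with 0 called higher and 0.827% of all genes called lower. Hmgcs1, the cytosolic synthase that opens the pathway, stood at 460, 385 and 375 CPM in wild type and at 308, 254 and 251 CPM in Dnmt3a1-/-, and fell by 0.59 ± 0.11 (adjusted p = 0.016). Sqle, the epoxidase of the sterol branch, stood at 97.3, 96.5 and 99.2 CPM against 86.3, 64.8 and 61.9 CPM and fell by 0.47 ± 0.11 (adjusted p = 0.048). Dnmt3a1-/- replicate 1 was the nearest to wild type for both genes.

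Further along that pathway the demethylases Cyp51 and Msmo1 fell by 0.62 ± 0.11 and 0.58 ± 0.10, and the desaturase Sc5d by 0.45 ± 0.09 (adjusted p = 0.012, 0.0096 and 0.020). All 11 genes of fatty acid synthesis were below 0 as well (median -0.28), and the elongase Elovl6 fell by 0.45 ± 0.09 (adjusted p = 0.025). The regulator of the pathway, Srebf2, had a difference of -0.28 and was not called (adjusted p = 0.15). Over the whole list of 39 genes, 7 fell. That count was 13 without Dnmt3a1-/- replicate 1, 0 without Dnmt3a1-/- replicate 2, 1 without Dnmt3a1-/- replicate 3, 4 without wild type replicate 2, 3 without wild type replicate 3, 2 with the choroid plexus covariate and 12 by DESeq2.

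**Figure D2:**
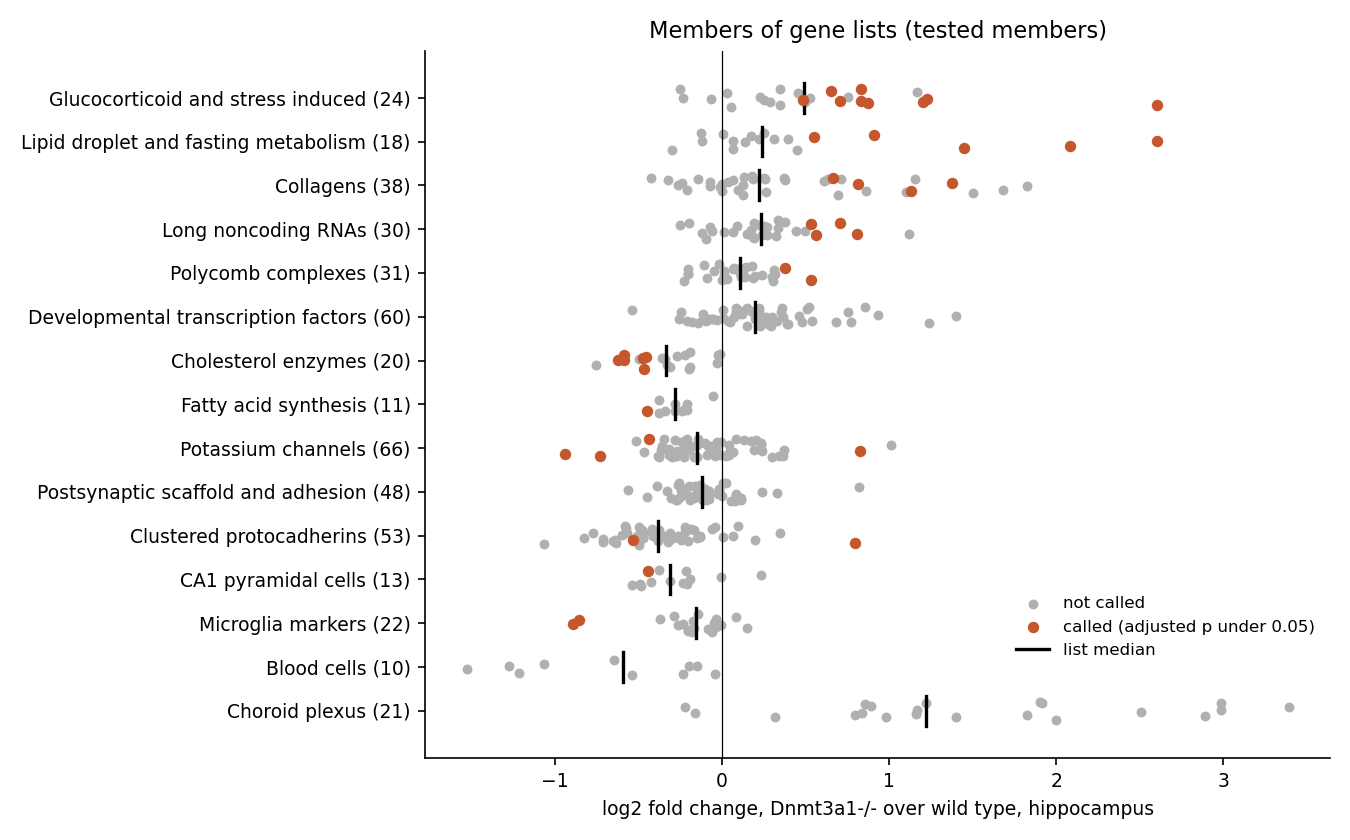
Log2 fold change of Dnmt3a1-/- over wild type hippocampus for the tested members of 15 gene lists or list roles, the number tested in brackets. Orange points are called, grey points are not, and black bars mark medians, from 1.22 in choroid plexus with 0 called to -0.59 in blood cells with 0 called. Cholesterol enzymes all lie below 0.

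Collagens and other matrix genes held 5 calls among 62 tested (8.06%, against 2.52% of all genes). Beside Col5a1, Col9a2 rose by 1.37 ± 0.18 (7.71, 5.33 and 6.30 CPM to 19.6, 17.1 and 12.8 CPM, adjusted p = 0.0025), Col23a1 by 0.82 ± 0.17 (adjusted p = 0.030) and Col7a1, the anchoring fibril collagen, by 0.66 ± 0.14 (adjusted p = 0.024). Of 38 collagen chains 28 were above 0 (median 0.22). Ncan, the proteoglycan neurocan of perineuronal nets, stood at 508, 463 and 448 CPM in wild type and at 332, 323 and 317 CPM in Dnmt3a1-/-, and fell by 0.54 ± 0.09 (adjusted p = 0.0079). Its groups were clearly separate. The 4 matrix genes called higher became 2 without Dnmt3a1-/- replicate 2, 8 without Dnmt3a1-/- replicate 3, 2 without wild type replicate 2, 2 with the choroid plexus covariate and 11 by DESeq2.

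In bulk tissue fewer cells of a type and less RNA per cell cannot be told apart. Of 25 astrocyte genes, Aqp4, the water channel of astrocyte endfeet, fell by 0.68 ± 0.11 (316, 253 and 253 CPM to 173, 154 and 186 CPM, adjusted p = 0.0073), and Slc7a10, a serine carrier, fell by 0.37 ± 0.09 (adjusted p = 0.040). The list median was -0.06 and its summed level overlapped between groups (19921 to 24611 CPM against 19222 to 22432 CPM). Kcnj10, the potassium channel through which astrocytes buffer potassium, fell by 0.73 ± 0.15 (646, 446 and 447 CPM to 268, 313 and 346 CPM, adjusted p = 0.027). The 2 calls of the astrocyte list (8%, against 2.52% of all genes) were 0 without Dnmt3a1-/- replicate 2 and 0 with the covariate. They were 1 without any 1 other library except wild type replicate 1.

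Of 22 markers of resting microglia 20 were below 0, but the median was only -0.16 and 2 were called (9.09%, against 2.52% of all genes). These were Olfml3 and Fcrls, a receptor-like surface protein, read at 151, 95.9 and 108 CPM in wild type and at 67.6, 60.2 and 66.9 CPM in Dnmt3a1-/-, which fell by 0.86 ± 0.15 (adjusted p = 0.013). Among 9 genes of lipid-laden or reactive microglia, Gpnmb rose and so did Spp1, the secreted protein osteopontin (8.06, 5.95 and 4.57 CPM to 13.3, 19.2 and 15.1 CPM, log2 1.40 ± 0.19, adjusted p = 0.0035), while the lipase Lpl fell by 0.45 ± 0.11 (adjusted p = 0.041). The microglia list summed to 4322 to 5351 CPM in wild type and 4329 to 4973 CPM in Dnmt3a1-/-, so the total overlapped. In vessels Aplnr, Itm2a and Pltp fell among 39 endothelial genes, the latter 2 by 0.47 ± 0.09 and 0.46 ± 0.10 (adjusted p = 0.013 and 0.027), and the pericyte signalling regulator Rgs5 fell by 0.48 ± 0.11 (adjusted p = 0.035). The 3 endothelial calls (7.69% of the list, against 2.52% of all genes) were 0 without Dnmt3a1-/- replicate 2 and 0 with the choroid plexus covariate. The log2 differences themselves ran from -1.68 to -1.33 for Aplnr, from -0.52 to -0.42 for Itm2a and from -0.52 to -0.36 for Pltp over the 16 alternatives. The 3 falling microglial genes of both microglia groups were 1 without Dnmt3a1-/- replicate 2 and 1 with the covariate.

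Neuron classes of the hippocampus gave few calls. Of 13 markers of CA1 pyramidal cells, the output neurons of the hippocampus, 12 were below 0 (median -0.31) and Wfs1, a protein of the endoplasmic reticulum, fell by 0.44 ± 0.10 (162, 166 and 142 CPM to 108, 130 and 107 CPM, adjusted p = 0.034). The summed level of the CA1 list overlapped, since wild type replicate 1 at 773 CPM stood near the knockout libraries (752 to 863 CPM) and below the other wild type libraries (1076 and 1057 CPM). Dentate granule cell markers had a median of 0.04, with Lct the 1 call among 17, and markers of CA2 and CA3 gave 0 calls among 17 (3 at an unadjusted p under 0.05, 0 by DESeq2). In the list of stem cells and newborn granule neurons, Nes, the stem cell intermediate filament nestin, fell by 0.66 ± 0.15 and Fabp7, a fatty acid carrier of radial glia, by 0.67 ± 0.13, while Rprm, a cell cycle inhibitor, rose by 0.73 ± 0.12 and Fxyd7, a regulator of the sodium pump, by 0.49 ± 0.11 (adjusted p = 0.038, 0.024, 0.0073 and 0.030). Calls made up 14.3% of this list, against 2.52% of all genes. The 2 falling genes were 0 without Dnmt3a1-/- replicate 1, without Dnmt3a1-/- replicate 2, without wild type replicate 2 or with the choroid plexus covariate, and 1 without wild type replicate 3. The 2 rising genes were 6 without wild type replicate 1, and 1 with the covariate, without wild type replicate 3 or without any 1 Dnmt3a1-/- library. None of 37 cell division genes was called by edgeR (median -0.15), with 6 at an unadjusted p under 0.05 and 1 called by DESeq2.

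Channel, receptor and synapse genes leaned downward with few calls. Of 66 potassium channel genes 47 were below 0 (median -0.15), and 6.06% were called, against 2.52% of all genes. Kcnt1 rose, and Kcng4, Kcnj10 and Kcnn3, a calcium-activated channel at -0.43 ± 0.09 (adjusted p = 0.029), fell. The 3 falling channels became 10 without wild type replicate 1 and 1 without Dnmt3a1-/- replicate 2. All 7 metabotropic glutamate receptors were below 0 (median -0.30), and the presynaptic receptor Grm2 fell by 0.48 ± 0.10 (adjusted p = 0.027). Gabra2, a subunit of the GABA-A receptor, fell by 0.53 ± 0.12 (adjusted p = 0.032), and 11 of 12 such subunits were below 0. Of 38 vesicle release genes 2.63% were called, near the 2.52% of all genes: Pclo, the active zone scaffold piccolo, fell by 0.42 ± 0.10 (adjusted p = 0.039). Of 48 postsynaptic genes 0 were called by edgeR (10 at an unadjusted p under 0.05, 4 called by DESeq2). Among receptors of other transmitters, Htr5b, a serotonin receptor, fell by 0.82 ± 0.18 (adjusted p = 0.032). Calls made up 3.51% of 57 axon guidance genes, near the 2.52% of all genes. The ephrin receptor Epha6 fell by 0.66 ± 0.14 and its relative Epha8 rose by 0.94 ± 0.19 (adjusted p = 0.028 and 0.025).

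HOX genes gave 0 testable members among 39 listed, and 0 of 60 tested developmental transcription factors were called, though 45 were above 0 (median 0.20), 11 had an unadjusted p under 0.05 and DESeq2 called 1. Germline genes had 13 testable members among 52 listed, and 2 of the 13 (15.4%) rose, against 1.69% of all genes called higher. This list too was chosen with earlier results of these data known. Rec8, a meiotic cohesin, stood at 3.62, 3.31 and 2.56 CPM in wild type and at 7.05, 9.91 and 6.23 CPM in Dnmt3a1-/-, and rose by 1.29 ± 0.22 (adjusted p = 0.0087). Tdrd5, a protein of germ granules, rose by 0.89 ± 0.22 (adjusted p = 0.049). Every knockout library was above every wild type one for Rec8, while 39 of the 52 germline genes had too few reads to test. The 2 germline calls were 1 with the covariate and 1 without any 1 library other than wild type replicate 1. Of 46 imprinted genes, the maternally expressed noncoding RNA Meg3 rose by 0.56 ± 0.12 and the paternally expressed zinc finger gene Peg3 by 0.39 ± 0.09, and Sgce, a sarcoglycan, fell by 0.59 ± 0.12 (adjusted p = 0.026, 0.043 and 0.022). Calls made up 6.52% of the 46 imprinted genes, against 2.52% of all genes. The 2 imprinted genes called higher were 0 without Dnmt3a1-/- replicate 2, without Dnmt3a1-/- replicate 3 or without wild type replicate 2, and 1 without Dnmt3a1-/- replicate 1, without wild type replicate 3 or with the covariate.

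The Polycomb complexes, which silence developmental genes by histone marks, held 2 calls among 31 (6.45%, against 2.52% of all genes). Pcgf2 rose by 0.53 ± 0.12 and Cbx7 by 0.38 ± 0.09 (adjusted p = 0.030 and 0.034), both subunits of the first complex. Both calls were lost without Dnmt3a1-/- replicate 2, without Dnmt3a1-/- replicate 3, without wild type replicate 2, without wild type replicate 3 or with the choroid plexus covariate, and 1 was called without Dnmt3a1-/- replicate 1. Wnt ligands differed among themselves: Wnt10b rose by 1.87 ± 0.31 (1.17, 0.617 and 0.900 CPM to 2.55, 2.65 and 3.97 CPM) and Wnt5a by 0.54 ± 0.12, while Wnt7a fell by 0.69 ± 0.14 (adjusted p = 0.0079, 0.029 and 0.020). The receptor Fzd1 rose by 0.65 ± 0.13 (adjusted p = 0.017). Of 50 tested Wnt signalling genes 8% were called, against 2.52% of all genes. The 3 Wnt genes called higher were 0 without wild type replicate 2 and 1 without Dnmt3a1-/- replicate 1, without Dnmt3a1-/- replicate 2, without wild type replicate 3 or with the covariate. Among ligands of the BMP and TGF-beta family list, Bmp4 rose by 0.78 ± 0.19 and Bmp1, a protease that matures collagens, by 0.61 ± 0.09 (adjusted p = 0.047 and 0.0060). These 2 calls (4.44% of 45 tested, against 2.52% of all genes) were 1 with the covariate and 1 without any 1 library other than wild type replicate 1.

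Clustered protocadherins give neurons surface identities, and their promoters are known targets of DNMT3 enzymes. Of 53 tested members 47 were below 0, with medians of -0.57 over 11 alpha, -0.42 over 21 beta and -0.24 over 21 gamma genes. The libraries of the 2 groups did not overlap in 13 of the 21 beta genes, 4 of the 21 gamma genes and 0 of the 11 alpha genes. Over all genes 23.4% did not overlap, in either direction. In spite of this lean only Pcdhga11 fell and Pcdhga12 rose, neighbours in the gamma cluster: Pcdhga11 stood at 19.6, 20.5 and 25.2 CPM against 16.8, 15.7 and 13.2 CPM (-0.53 ± 0.13, adjusted p = 0.049), Pcdhga12 at 13.7, 10.5 and 14.9 CPM against 23.1, 23.9 and 20.5 CPM (0.79 ± 0.13, adjusted p = 0.0083). The calls made up 3.77% of the 53 members, near the 2.52% of all genes. Of the 16 alternatives, Pcdhga11 was called under 4 and Pcdhga12 under 13. Members of a cluster are close copies, and those of the alpha and gamma clusters also share exons, so how reads were split among them is uncertain.

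Of 30 tested long noncoding RNAs 4 rose: Neat1, the scaffold of paraspeckles, by 0.81 ± 0.15, Snhg11 by 0.71 ± 0.15, Meg3 by 0.56 ± 0.12 and Miat by 0.53 ± 0.10 (adjusted p = 0.019, 0.028, 0.026 and 0.012), and 0 fell (median 0.23). Neat1 stood at 40.2, 46.1 and 41.2 CPM in wild type and at 56.9, 74.4 and 91.6 CPM in Dnmt3a1-/-. Beside this group, uniquely aligned reads outside annotated genes made up 8.41%, 8.74% and 8.52% in wild type and 10.3%, 9.69% and 10.3% in Dnmt3a1-/-, without overlap. Whether that share had a part in the noncoding result was not tested. The 4 calls made up 13.3% of the list, against 2.52% of all genes. They were 0 without Dnmt3a1-/- replicate 2, 2 without Dnmt3a1-/- replicate 3, 1 without wild type replicate 2 and 2 without wild type replicate 3, and 4 with the choroid plexus covariate.

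Other lists held single calls, apart from the neocortical layer list (Rprm and Ccn2 higher, Nr4a2 lower) and the immediate early list (Gadd45g higher, Nr4a2 lower). Among lists of other neurons, Csf2rb2, a cytokine receptor subunit in the list of mossy and subicular cells, rose by 0.77 ± 0.18, and Nos1, the neuronal nitric oxide synthase, fell by 0.58 ± 0.13 (51.1, 68.7 and 76.1 CPM to 47.4, 46.3 and 38.9 CPM, adjusted p = 0.039 and 0.043). Ppp1r1b, a dopamine-regulated phosphatase inhibitor, was the 1 call among 15 striatum genes. It went from 22, 21.3 and 21.5 CPM to 32.8, 40.1 and 36.6 CPM and rose by 0.76 ± 0.10 (adjusted p = 0.0025). Ccn2, a matricellular growth factor, rose by 1.11 ± 0.18 (19, 21.5 and 18.3 CPM to 35.2, 56.7 and 36.2 CPM, adjusted p = 0.011), and the immediate early nuclear receptor Nr4a2 fell by 0.47 ± 0.10 (adjusted p = 0.028). The wild type libraries of Ppp1r1b and Ccn2 lay close together and below every knockout library. C4b, a complement component, rose by 0.46 ± 0.10 (adjusted p = 0.025) and Rps4l, a copy of a ribosomal protein gene, by 0.88 ± 0.15 (adjusted p = 0.0081). Trf, the iron carrier transferrin of oligodendrocytes, fell by 0.51 ± 0.11 and Ret, the receptor of GDNF family ligands, by 0.76 ± 0.19 (adjusted p = 0.034 and 0.0495). Rps4l was the 1 call among 81 ribosomal protein genes, and 0 of 80 genes of oxidative phosphorylation were called by edgeR (5 at an unadjusted p under 0.05, 1 called by DESeq2).

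The hippocampus files list identifiers that the cortex files lack, and 1193 of them could be tested. Of these 25 were called (2.10%, against 2.55% of the identifiers shared with cortex), 20 higher (1.68%) and 5 lower (0.419%). They include protein-coding genes whose identifier differs between the annotations, such as Hmgcs1, Bin2, an adaptor of microglia and other leukocytes (17.2, 11.7 and 12.6 CPM to 8.67, 8.96 and 9.01 CPM, -0.61 ± 0.15, adjusted p = 0.0495), Tmem121b (-0.40 ± 0.10, adjusted p = 0.046) and Samd11, a transcriptional cofactor (1.51 ± 0.27, adjusted p = 0.012). The noncoding or uncharacterised genes A230057D06Rik, Gm37194 and Gm20033 rose by 0.82 ± 0.13, 1.22 ± 0.19 and 1.30 ± 0.18 (adjusted p = 0.0073, 0.0078 and 0.0037), and 4921539H07Rik fell by 0.90 ± 0.19 (adjusted p = 0.027). A230057D06Rik stood at 13.6, 15.3 and 11.6 CPM in wild type and at 20.8, 23.4 and 26.8 CPM in Dnmt3a1-/-. Its groups did not overlap. The count of 25 fell to 5 without Dnmt3a1-/- replicate 2, 8 without wild type replicate 2, 10 without Dnmt3a1-/- replicate 3 and 11 without wild type replicate 3.

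Cortex of the same genotype was used to ask which changes the hippocampus does not share. In 1 model of all 12 libraries over 15433 shared genes, 811 genes were called in hippocampus (5.25%) and 2205 in cortex (14.3%). In hippocampus 442 (2.86%) were higher and 369 (2.39%) lower, and in cortex 1110 (7.19%) were higher and 1095 (7.1%) lower. Of the hippocampus calls, 316 of 442 higher genes (71.5%) and 233 of 369 lower genes (63.1%) were also called in cortex in the same direction, which is 28.5% and 21.3% of the cortex calls, and 0 were called in the opposite one. Among the hippocampus calls with no such cortex call, 117 of 126 higher genes (92.9%) and 132 of 136 lower genes (97.1%) had the same sign in cortex. The share of the same sign over all 15433 genes is not given here, so no excess is drawn from these values. The labels do not say whether both tissues came from the same animals, and the model takes no account of it. Across genes the 2 sets of log2 differences correlated at Pearson r = 0.584 and Spearman rho = 0.602 (n = 15433 genes, which are not independent and share libraries). The labels do not tie the mutant cortex to 1 series of wild type cortex libraries, and with all 8 of them as controls the count called in both tissues was 154 instead of 549. Otoa differed by 2.92 ± 0.21 in hippocampus and 2.66 ± 0.30 in cortex, and Aplnr by -1.5 ± 0.28 and -2.02 ± 0.24. The 811 and 2205 calls rest on different residual spreads than the fit of hippocampus alone, and the count called in both tissues, 549, fell to 252 without Dnmt3a1-/- hippocampus replicate 2, 293 without wild type hippocampus replicate 3, 331 without wild type hippocampus replicate 2, 339 without wild type cortex replicate 3 and 361 without Dnmt3a1-/- cortex replicate 2. The 2205 cortex calls were 894 without wild type cortex replicate 3, 977 and 1239 without Dnmt3a1-/- cortex replicates 2 and 1, and 1439 without wild type cortex replicate 2.

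No gene was called as responding differently in the 2 tissues: 0 of 15433 passed for the difference of effects (edgeR quasi-likelihood test, lowest adjusted p = 0.24), with 777 (5.03%) at an unadjusted p under 0.05, 398 of them (2.58%) higher in hippocampus. The smallest p belonged to Doc2b, a calcium sensor of vesicle release, with -0.25 ± 0.08 in hippocampus and 0.40 ± 0.08 in cortex. Pnpla7, a lysophospholipase, had 0.15 ± 0.08 against 0.81 ± 0.08 (adjusted p of the difference 0.24 for both genes). Itga7, a laminin receptor, stood at 53.7, 51.7 and 44.3 CPM in wild type hippocampus and at 68.0, 77.5 and 77.8 CPM in Dnmt3a1-/- hippocampus (0.58 ± 0.09), with 0.0049 ± 0.09 in cortex (adjusted p of the difference 0.55). Sec14l4, a lipid transfer protein, was at 0.0416, 0.0771 and 0.118 CPM in wild type cortex and 1.03, 1.64 and 1.14 CPM in Dnmt3a1-/- cortex, while hippocampus had 0.690, 0.783 and 0.275 CPM against 0.505, 0.400 and 0.962 CPM. Its difference of -3.81 ± 0.73 did not pass (adjusted p = 0.41). The interferon response genes had a list median of -0.04 in hippocampus and 0.48 in cortex over 27 genes, with 0 called higher in hippocampus and 6 in cortex. The difference of this list was not tested.

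**Figure D3:**
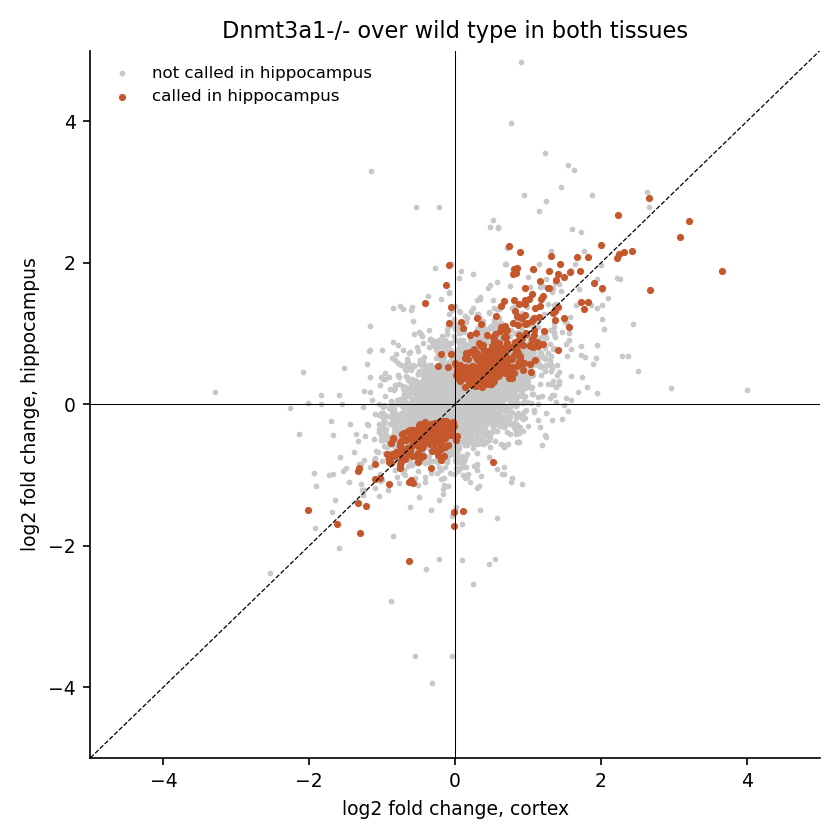
Log2 fold change of Dnmt3a1-/- over wild type in cortex (horizontal) and hippocampus (vertical) for 15433 genes in 1 model, with the 811 genes called in hippocampus in orange and a dashed line of equal change. Nearly all orange points lie below 0 or above 0 in both tissues (98% of higher and 98.9% of lower calls).

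The libraries differed most in markers of 1 neighbouring tissue. The choroid plexus list had the highest median of all lists, 1.22 over 21 genes, with 19 above 0 and 0 called by edgeR or DESeq2 (1 at an unadjusted p under 0.05). Ttr, the transport protein made by that epithelium, stood at 58.4, 84.5 and 69.6 CPM in wild type and at 490, 1704 and 45.3 CPM in Dnmt3a1-/-. Dnmt3a1-/- replicate 2 was highest and replicate 3 lower than any wild type library, so the groups overlapped (3.39 ± 1.40, adjusted p = 0.32). Folr1, a folate receptor, followed the same order at 4.50, 13 and 0.530 CPM against 0.467 to 0.900 CPM. All 10 tested blood cell genes were below 0 (median -0.59, 0 called by edgeR, 5 at an unadjusted p under 0.05, 3 called by DESeq2), with sums of 464 to 569 CPM in Dnmt3a1-/- and 560 to 916 CPM in wild type. Summed neocortical markers differed little between wild type and Dnmt3a1-/- (651 to 680 against 678 to 704 CPM), as did thalamic ones (194 to 254 against 223 to 241 CPM). Single neocortical genes did move: of 21 tested, Rprm and Ccn2 were called higher and Nr4a2 lower (14.3%, against 2.52% of all genes). Of 16 thalamic genes 0 were called (2 at an unadjusted p under 0.05, 0 called by DESeq2).

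**Figure D4:**
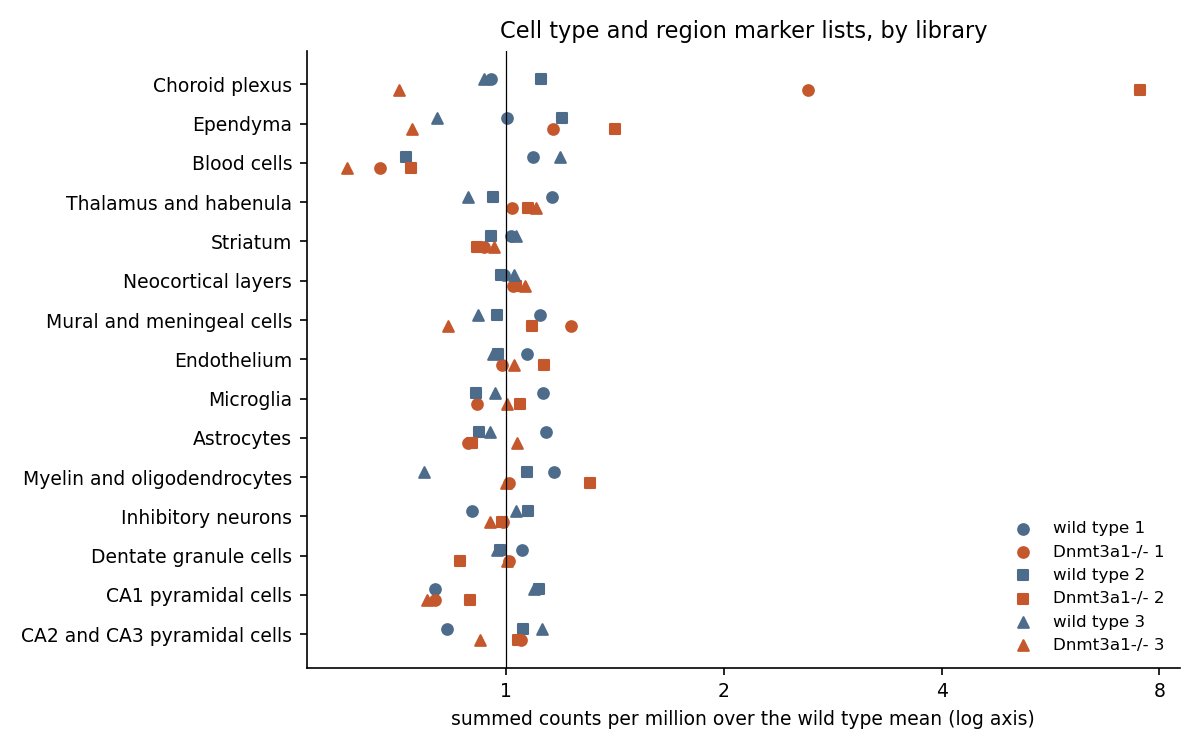
Summed CPM of each marker list in each library, divided by the wild type mean (log axis), in wild type (blue) and Dnmt3a1-/- (orange) hippocampus, with marker shape for the replicate number. Choroid plexus stands apart, at 1024 and 2947 CPM in Dnmt3a1-/- replicates 1 and 2 against 278 CPM in replicate 3.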

How the data were processed

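RNA of homogenised hippocampus was purified with an AllPrep DNA/RNA kit and sequenced with a TruSeq stranded mRNA kit, per the labels' protocols. Per the submitters' processing notes, STAR 2.5.4a, HTSeq 0.11.0 and mouse build mm9 were used. The authors deposited 1 file of counts per library, whole reads per gene with no normalization recorded. The annotation release and strand setting are not given in the sources used here, so overlapping and antisense genes may share reads. Lines that name no gene (22.71% to 27.22% of reads) were left out.

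Symbols came from the supplied name table (55394 of 55487 identifiers). After filterByExpr and TMM scaling, genes were tested with edgeR 4.0.16 (R 4.3.3, robust quasi-likelihood F-test, Benjamini-Hochberg), with a call at an adjusted p under 0.05. Each SE was computed by dividing the size of the fold change (log2) by the root of its F statistic. The 12 hippocampus and cortex libraries were fitted in 1 model over shared identifiers, with the difference of effects as interaction. The scripts were tested on simulated counts. Replicates differed beyond counting noise in every pair.

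The members and 51 gene lists were chosen with earlier results of these data known, and a list of heat and cold response genes after values were seen. Named genes were Dnmt3a, up to 12 called genes of largest change (mean log2 CPM of at least 1, no overlap between groups, predicted genes left out) and 8 of smallest p per direction, 5 per direction from identifiers that cortex lacks, up to 4 called members per list role, or the 2 of highest level where none was called, and for the difference 3 per direction. Others were named after their values were seen: genes given as not called, Mt1, Mt2, Sult1a1, Cebpd and Sqle (called, but beyond 4 in their role), and those of the closing section. Some genes the rule names are not reported. Alternatives were other scalings and filters, DESeq2 1.42.0, a replicate block, sex, a choroid plexus score, and leaving out each library. Leaving out both female libraries was chosen after seeing the data. Same-numbered cortex libraries deviated together (correlations 0.237, 0.376 and 0.184), so cortex numbers were taken to pair libraries, from these values alone. The model behind the reported cortex, shared and difference counts holds no replicate term, so those counts ignore such pairing. A replicate block was an alternative only.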

Additional observations from a re-analysis of the deposited data

Results flagged for a closer look

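Reads that aligned uniquely but outside annotated genes, which enter no comparison of the report, were higher in every Dnmt3a1-/- hippocampus library than in any wild type one. The lowest Dnmt3a1-/- library held 9.686% of its uniquely aligned reads there, and the highest wild type library 8.742%. An exact two-sided permutation test of the 6 shares gave p = 0.10, the smallest that 3 against 3 libraries allow.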

How the results depend on the processing

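The hippocampus count of 396 genes was 604 by DESeq2, 1039 with every gene of at least 1 count, 246 with the replicate block (0 imprinted genes called higher instead of 2, 0 Polycomb genes instead of 2), 125 with the choroid plexus covariate and 28 without both female libraries, and 86 to 783 when 1 library was left out. With sex as a term it was 344. Of the calls, 313 of 344 with sex as a term, 111 of 125 with the covariate and 21 of 28 without the female libraries are among the 396. Same-numbered hippocampus libraries did not deviate together (correlations -0.0556, 0.272 and 0.0261), so the numbers were not taken as pairs. Calls among list members, 84, were 136 by DESeq2, 200 with every counted gene, 36 with the covariate, 16 without the female libraries and 26 to 155 with 1 library left out. The 25 calls among identifiers that cortex lacks were 63 with every counted gene, 16 with the replicate block, 9 with the covariate, 1 without the female libraries and 5 to 36 with 1 library left out. Dnmt1, not called, was at -0.0682 with the covariate and ran from -0.0242 to 0.108 with 1 library left out, 3 of those fits being below 0, and Cpt1a, at -0.012 without wild type replicate 3, ran from there to 0.141. The 2205 cortex calls were 3750 against all 8 wild type cortex libraries, which also moved the calls shared by both tissues from 549 to 154, and 894 to 2745 with 1 library left out (shared calls 252 to 731). The cause of these shifts was not tested. No gene was called for the difference of effects under any alternative, which holds for the settings run only. Other scalings (library totals, upper quartile, DESeq2 size factors) gave 380 to 414 hippocampus calls and moved the median of all genes to no more than 0.0263 on the log2 scale. They turned the sign of the list median only for 5 lists, all with medians near 0. These are the lists of CA2 and CA3, immediate early, interferon and antigen presentation, nuclear receptor and oxidative phosphorylation genes. With library totals 309 of 409 calls were higher, and with the upper quartile 306 of 414, against 266 of 396.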

Other observations

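Further groups, put together after their values were seen and so carrying no test, stood among the called genes. The first is RNA splicing and processing: Arglu1 rose by 0.60 ± 0.11, Rsrp1 by 0.62 ± 0.11, Leng8 by 0.60 ± 0.11 and Snrnp70, the core protein of the U1 particle, by 0.51 ± 0.09. The splicing factors Srsf2 and Srsf5 rose by 0.40 ± 0.08 and 0.37 ± 0.08, Prpf39 by 0.48 ± 0.11 and the poly(A)-binding protein Pabpn1 by 0.43 ± 0.09. Snrnp70 stood at 245, 235 and 264 CPM in wild type and at 321, 369 and 366 CPM in Dnmt3a1-/-. These are abundant genes with small, separate shifts in the same libraries that held more reads outside annotated genes, and whether the 2 are tied was not tested.

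The second group is the machinery that folds and modifies collagen. P4ha1, a prolyl hydroxylase, fell by 0.61 ± 0.10, Serpinh1, the collagen chaperone, by 0.69 ± 0.12, and Plod1, a lysyl hydroxylase, by 0.41 ± 0.09, while the galactosyltransferase Colgalt1 rose by 0.47 ± 0.08 and 4 collagen chains rose. Serpinh1 stood at 52.8, 43.5 and 60.4 CPM in wild type and at 36.5, 31.2 and 29.5 CPM in Dnmt3a1-/-.

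The third is temperature-responsive genes. The cold-induced Cirbp and Rbm3 rose by 1.01 ± 0.13 and 0.37 ± 0.09, and of 23 heat shock genes 18 were below 0, with Hsph1 (185, 235 and 267 CPM to 145, 127 and 122 CPM) and Hspa4 falling by 0.80 ± 0.12 and 0.45 ± 0.09. Single genes of metabolism that rose, picked from the calls with no list behind them, were Slc16a1, a carrier of lactate and ketone bodies, by 0.86 ± 0.15, the fructokinase Khk by 0.61 ± 0.13, Acacb, which makes malonyl-CoA at mitochondria, by 0.63 ± 0.14, and the transcription factor Klf15 by 0.58 ± 0.12. The dehydrogenases Idh2 and Gpd1 rose by 0.58 ± 0.10 and 0.37 ± 0.09. Klf15 stood at 21.1, 23.4 and 30.5 CPM in wild type and at 35.0, 38.5 and 39.2 CPM in Dnmt3a1-/-.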
